A study of Mus musculus with 30 samples.

Results

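Heart RNA of mice lacking ClpP was compared with heart RNA of wild-type littermates on 6 of the 30 arrays of the series. The arrays were taken by the tissue and genotype in their titles, which gave 3 knockout and 3 wild-type hearts, labelled ClpP KO and wild type, all on a C57BL/6 background. The series also holds testis, liver, skeletal muscle and brain of both genotypes, with 3 arrays in each of its 10 groups. How the Clpp allele was made, the age of the mice and any treatment are not given in the sources used here. The labels do not say that replicates came from separate animals, so p values refer to the spread among the arrays, part of which may be technical. Values are log2 expression, on which a difference of 1 is a 2-fold change. The 3 arrays per group limit the precision, and an exact test of 3 against 3 arrays cannot give a p below 0.1. The titles say heart and do not name the parts taken. In RNA from heart tissue, fewer cells of a type and less RNA per cell cannot be told apart.

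ClpP is the proteolytic subunit of ClpXP, a protease of the mitochondrial matrix that degrades unneeded and damaged proteins, and heart muscle is one of the tissues richest in mitochondria. Cells answer mitochondrial faults partly through the integrated stress response, in which the transcription factor ATF4 turns on genes of amino acid synthesis and transport. Type I interferon signalling acts through a transcription factor complex that contains IRF9 and turns on a large set of antiviral genes.

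Clpp itself was at 3.71, 3.68 and 3.48 on the knockout arrays and at 9.21, 9.13 and 9.20 on the wild-type arrays. The difference was -5.56 ± 0.19 (SE, n = 3 arrays each; limma, adjusted p = 4.02e-16), with no overlap of the groups, and was -5.47 with knockout replicate 1 alone. The knockout mean of 3.62 is below the array medians of 3.99 to 4.11, so the fall is a lower bound. A difference whose lower group mean is under 4 is read in this way throughout. The 11 measured cardiomyocyte markers were compared between the genotypes, which is not a check of the tissue label. None of them changed in either direction (limma, 0 also at an unadjusted p below 0.05), and troponin T2 (Tnnt2) stood at 13.13 ± 0.11 on knockout and 13.24 ± 0.10 on wild-type arrays (SD, n = 3).

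Knockout replicates 2 and 3 stood apart from the other 4 heart arrays. On them 103 genes were at least 1 higher, and 3 genes at least 1 lower, than on each of the other 4 arrays. Atrial transcripts were prominent among these. The atrial light chain Myl7 read 3.59 on knockout replicate 1, 12.63 and 12.79 on replicates 2 and 3, and 7.42, 3.81 and 2.95 on the wild-type arrays. Myl4, the other atrial light chain, read 3.34, 12.43 and 12.48 against 7.75, 4.49 and 4.36. Both light chains were thus high on knockout replicates 2 and 3, intermediate on wild-type replicate 1 and low on the remaining 3 arrays. The atrial peptide Nppa read 9.30, 13.06 and 13.14 against 9.64, 10.79 and 11.06. Taken over the 12 measured atrial markers, the mean level was 4.90, 8.04 and 8.10 on the knockout arrays and 6.10, 5.39 and 5.31 on the wild-type arrays. Gja5 was below 3 on all 6 arrays.

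Fat transcripts followed the same arrays. Adiponectin (Adipoq), secreted by adipocytes, read 2.57, 8.03 and 9.28 on the knockout arrays and 3.29, 2.87 and 2.71 on the wild-type arrays. The brown fat uncoupler Ucp1 read 2.78, 6.89 and 8.07 against 2.80, 2.90 and 2.83. Scd1, a lipogenic desaturase, read 5.85, 10.47 and 10.35 against 6.14, 5.58 and 5.26. Each of these was high on knockout replicates 2 and 3 and on no other heart array. Not every adipocyte gene did so, since leptin (Lep) and Pck1 stayed below 3 on all 6 arrays and Fabp4, which endothelium also expresses, lay between 11.27 and 11.50. The mean level of the 14 white adipocyte markers was 4.97, 6.32 and 6.62 against 5.31, 5.19 and 4.98, and that of the 5 brown adipocyte markers 5.03, 6.22 and 6.59 against 5.03, 5.06 and 5.06.

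Smooth muscle and matrix transcripts were also higher there. The 8 smooth muscle markers averaged 5.56, 7.02 and 7.04 on the knockout arrays and 5.57, 5.51 and 5.90 on the wild-type arrays, and the 17 fibroblast and matrix markers 6.34, 7.46 and 7.44 against 6.51, 6.81 and 6.67. The 10 ventricular markers averaged 8.92, 8.44 and 8.59 against 8.72, 8.73 and 8.85. Of the marker lists, 3 of 12 atrial genes were called higher by limma (the secreted protein Dkk3, the growth factor Bmp10 and the amidating enzyme Pam), with 1 of 5 brown adipocyte genes (Ucp1), 1 of 8 smooth muscle genes (calponin, Cnn1) and none of the 10 ventricular genes (none also at an unadjusted p below 0.05). No member was called among the 14 white adipocyte and 17 fibroblast markers (limma; 3 and 4 were higher at an unadjusted p below 0.05). Of 12 mesothelial markers, of the lining of the heart surface, 1 was called higher, Lrrn4 (limma; 4 were higher at an unadjusted p below 0.05). Their mean level was 3.57, 4.25 and 3.82 on the knockout arrays and 3.56, 3.49 and 3.19 on the wild-type arrays. Of 15 endothelial markers none was called (median -0.32; 1 higher and 6 lower at an unadjusted p below 0.05). Over all genes tested, 1.11% were called higher and 1.07% lower, and 13.8% had an unadjusted p below 0.05 in either direction. With knockout replicate 1 as the only knockout array, none of these 6 called markers passed, and Dkk3 (-0.17), Bmp10 (-0.17) and Ucp1 (-0.06) changed sign. Results are therefore also given for replicate 1 as the only knockout array, whose spread is then assumed to be that of the other groups.

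**Figure D1:**
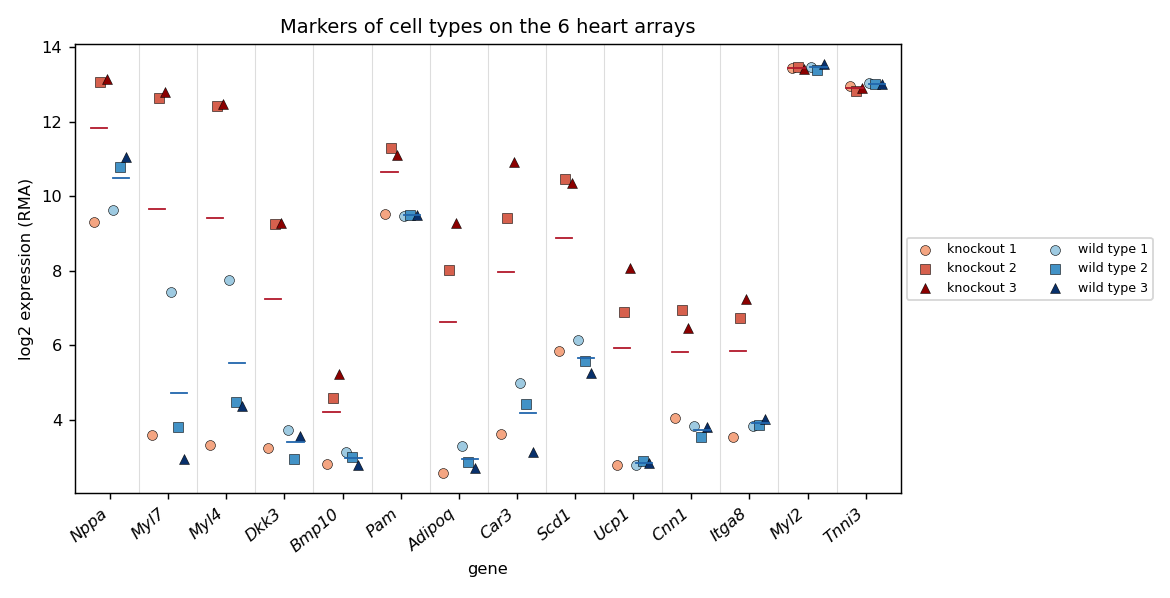
Log2 expression (RMA, vertical axis) of 14 marker genes (horizontal axis) on each of the 6 heart arrays, with group means as short lines. Atrial genes (Nppa to Pam), fat genes (Adipoq to Ucp1) and smooth muscle genes (Cnn1, Itga8) are high on knockout replicates 2 and 3, whereas ventricular Myl2 and cardiac troponin I (Tnni3) lie together on all 6 arrays.

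Across the 17097 genes, 372 were called at an adjusted p below 0.05 (limma; 2.18%), of which 189 were higher and 183 lower in knockout heart. Of these, 107 rose and 41 fell by at least 1. The median change over all genes was -0.01. The ranges of the 2 genotypes did not overlap for 344 of the 372 genes, and for 19.3% of all genes. With knockout replicate 1 alone, 145 genes were called (0.848%; 89 higher and 56 lower), 85 of them among the 372. The replicate 1 difference had the same sign as the full one for 362 of the 372 and reached at least 50 percent of it for 294. Of the genes under that share, 57 were higher and 21 lower. Of the 103 genes high on replicates 2 and 3, 38 were called higher.

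**Figure D2:**
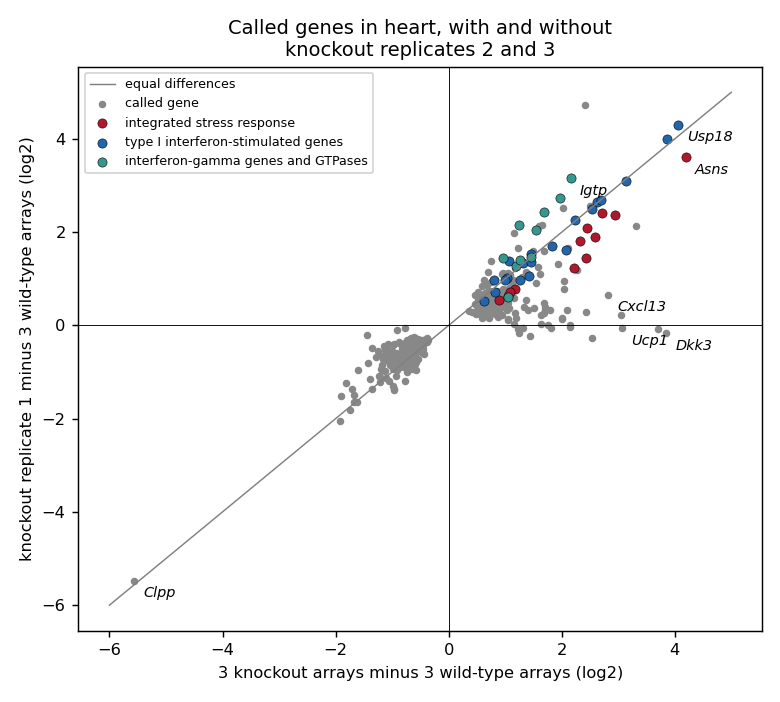
Log2 difference of the 372 called genes with all 3 knockout arrays (horizontal axis) and with knockout replicate 1 alone (vertical axis), each against the 3 wild-type arrays. Points near the diagonal changed by a like amount with and without replicates 2 and 3, as Usp18 and Asns did, while Dkk3 and Ucp1 lie near 0 on the vertical axis.

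Antiviral genes of the type I interferon program were higher in knockout heart. Of 37 measured type I interferon-stimulated genes, 20 rose and none fell in knockout heart (limma), with a median difference of 0.81. Arrays of the 2 genotypes did not overlap for 30 of the 37, against 19.3% of all genes. The list's median deviation from the wild-type mean was 0.98, 0.82 and 0.83 on knockout replicates 1, 2 and 3, and so was no larger on the arrays that carry atrial and fat transcripts. With replicate 1 alone 15 members were called higher, at a median of 0.98, and the fit of the 6 heart arrays by themselves called 18 (0.485% of all genes were called in that fit).

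Feedback regulators and antiviral effectors led the list. Usp18, the protease that removes ISG15 from proteins and dampens interferon receptor signalling, read 8.17, 7.70 and 7.93 on the knockout arrays and 3.78, 3.87 and 3.97 on the wild-type arrays. It rose by 4.06 ± 0.19 (limma, adjusted p = 1.92e-13), a lower bound because its wild-type level was low. Ifit1, which binds RNA lacking a self cap, read 8.09, 7.92 and 7.89 against 4.35, 4.29 and 3.67. It rose by 3.86 ± 0.19 (limma, adjusted p = 3.65e-13). For both genes every knockout array was more than 3 above every wild-type array. Ifit3, a partner of Ifit1, read 8.88, 8.87 and 9.004 against 5.51, 6.17 and 5.64 and rose by 3.14 ± 0.23. Ifi27, an interferon-induced membrane protein, read 10.78, 10.76 and 10.77 against 7.99, 8.08 and 8.16, a rise of 2.69 ± 0.12. Its knockout arrays had an SD of 0.009, and the groups were far apart.

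Among transcription factors of the pathway, Irf7 and Irf9 rose. Irf7, the amplifier of interferon production, read 7.16, 6.77 and 7.49 against 4.85, 4.34 and 4.34 and rose by 2.62 ± 0.20 (limma, adjusted p = 3.88e-09). Irf9, the DNA-binding subunit of the interferon complex, rose by 1.46 ± 0.15, while Stat2, another subunit, differed by 0.63 ± 0.19 and was not called (adjusted p = 0.0858). Among the sensors of viral RNA, Ifih1 rose by 1.43 ± 0.21, and Dhx58 differed by 0.58 ± 0.17 without being called (adjusted p = 0.0795). Ifit2 (2.23 ± 0.17), Oasl2 (2.08 ± 0.18) and the oligoadenylate synthetase Oas1g (1.83 ± 0.17) were further called effectors. Lgals3bp, a secreted glycoprotein, read 8.46, 8.57 and 8.48 against 5.64, 6.46 and 5.80 and rose by 2.54 ± 0.24. The remaining called members were Rtp4, Xaf1, Oasl1, Ddx60, Rsad2, Zbp1, Trim30a, Cmpk2 and Dtx3l, with rises from 0.62 to 1.46. Members near the floor of the arrays, such as Mx1 (0.39 ± 0.15) and Oas3 (0.03 ± 0.11), were not called.

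**Figure D3:**
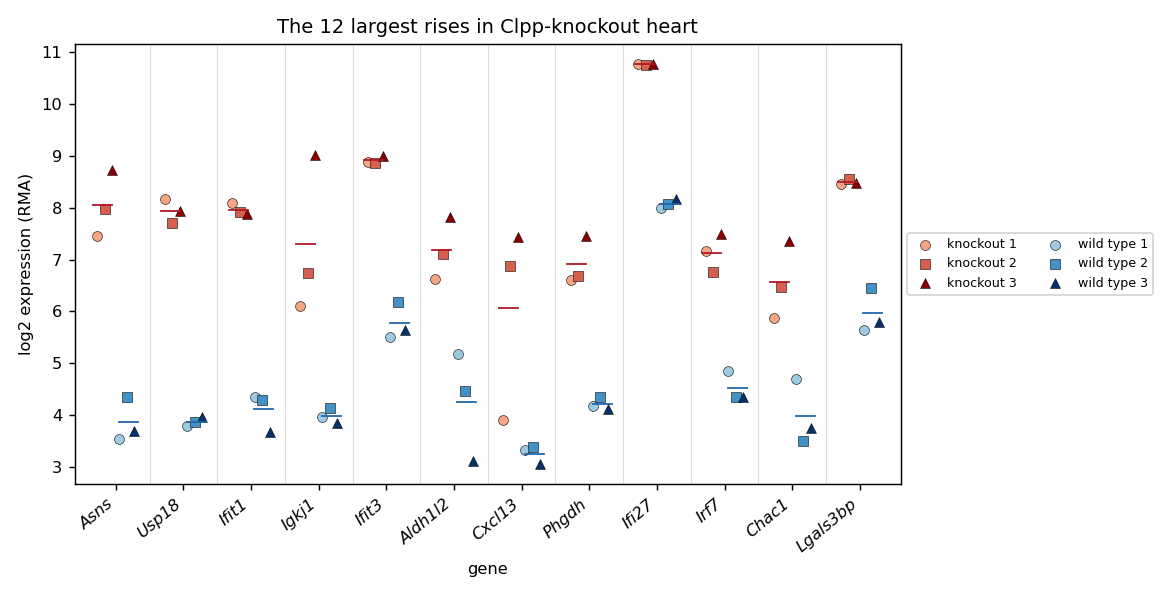
Log2 expression (RMA, vertical axis) of 12 genes (horizontal axis), the largest rises among called genes whose groups do not overlap and whose mean reaches 6 in either genotype, on each of the 6 heart arrays, with group means as short lines. All knockout arrays lie above all wild-type arrays for each gene, with Cxcl13 low and Igkj1 intermediate on knockout replicate 1.

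Promoters of called members are shown because the interferon complex is known to bind the interferon-stimulated response element. Its core was searched as GAAA, any 2 bases, then GAAA. The 250 bases before the gene start were used, on both strands, in RefSeq promoters of the GRCm38.p6 assembly. The core was found for 6 of the 16 called type I members with a promoter in that table (37.5%) and for 2 of 9 members not called (22.2%), against 3.46% of 27025 genes. The printed promoters are those of the 3 called members with a match and the largest rises. Capitals mark the matches, which appear as the reverse complement of the core where it lies on the strand not printed. The windows are chr19:34640639-34640888 (plus strand) for Ifit1, chr19:34583279-34583528 (plus strand) for Ifit3 and chr5:120887614-120887863 (minus strand) for Oas1g, all 5′ to 3′ toward the gene start.
Ifit1: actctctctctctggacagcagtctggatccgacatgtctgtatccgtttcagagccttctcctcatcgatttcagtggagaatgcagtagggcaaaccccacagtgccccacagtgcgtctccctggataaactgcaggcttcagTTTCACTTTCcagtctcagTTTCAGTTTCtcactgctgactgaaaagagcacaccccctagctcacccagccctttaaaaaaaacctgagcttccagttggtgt
Ifit3: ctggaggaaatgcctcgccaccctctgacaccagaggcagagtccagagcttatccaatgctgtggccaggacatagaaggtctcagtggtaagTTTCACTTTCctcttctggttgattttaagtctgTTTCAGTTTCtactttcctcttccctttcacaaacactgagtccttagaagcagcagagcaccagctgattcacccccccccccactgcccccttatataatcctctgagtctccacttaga
Oas1g: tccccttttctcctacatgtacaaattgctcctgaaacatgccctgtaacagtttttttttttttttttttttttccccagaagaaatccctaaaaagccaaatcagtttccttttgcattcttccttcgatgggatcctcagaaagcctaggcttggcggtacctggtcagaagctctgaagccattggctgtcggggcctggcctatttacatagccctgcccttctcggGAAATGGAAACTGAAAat
Ifit1 and Ifit3 each hold 2 separate matches. In Oas1g 2 matches overlap and begin 18 and 12 bases before the gene start. A match is a description of the letters and not of binding.

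Interferon-gamma genes and immunity GTPases, which defend cells against intracellular microbes, also rose. Of 17 measured members 10 rose and none fell (limma), with a median difference of 1.06. The list's median deviation was 1.40 on knockout replicate 1 and 0.78 and 1.07 on replicates 2 and 3. The GTPase Igtp, which helps to attack the vacuoles of intracellular parasites, read 9.68, 8.02 and 8.36 on the knockout arrays and 6.79, 6.30 and 6.49 on the wild-type arrays, a rise of 2.16 ± 0.32 (limma, adjusted p = 0.000186). Irgm2 and Irgm1, regulators of this GTPase family, rose by 1.97 ± 0.31 and 1.68 ± 0.23. Replicate 1 was the highest knockout array for all 3 of them. Nlrc5, the activator of MHC class I genes, read 6.28, 5.16 and 5.87 against 3.93, 4.10 and 4.67 and rose by 1.54 ± 0.30. Gbp2, Gbp3, Gbp7, Ifi47, Iigp1 and the chemokine Cxcl10 completed the called members. Irf1 (0.51 ± 0.21) and Irf8 (0.34 ± 0.21) were not called, and Ciita, the activator of class II genes, differed by 0.11 ± 0.13. Replicate 1 alone called 8 members, but the fit of the 6 heart arrays alone called only 3.

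Antigen presentation genes were examined by MHC class. Of 12 MHC class I presentation genes 2 rose (16.7%, against 1.11% of all genes) and none fell (limma; median 0.51). At an unadjusted p below 0.05, 7 of the 12 were higher and none lower. The groups did not overlap for 8 of the 12, against 19.3% of all genes. The called genes were H2-K1, at 11.13, 11.07 and 11.02 against 9.97, 9.91 and 9.83 (1.17 ± 0.19), and H2-D1 (1.09 ± 0.26). Both are class I heavy chains, and probe sets of this gene family can share signal. Other H2-D1 probe sets differed by -0.03 to 0.47. The immunoproteasome subunits Psmb8 (0.95 ± 0.28) and Psmb9 (0.79 ± 0.23) were not called (adjusted p = 0.0767 and 0.0759). None of the 8 MHC class II genes was called (limma). At an unadjusted p below 0.05, 3 were higher, against 13.8% of all genes in either direction. Of 14 nucleic acid sensors 2 rose, Ifih1 and Zbp1.

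Markers of immune cells were examined beside these genes. Of 19 macrophage markers 2 rose (limma), the Fc receptor chain Fcer1g (0.84 ± 0.21) and the receptor Fcgr1 (0.59 ± 0.13), which interferon also induces. At an unadjusted p below 0.05, 11 were higher and none lower, against 13.8% of all genes in either direction. The median difference was 0.59. The groups did not overlap for 9 of the 19, against 19.3% of all genes. The mean level of the list was 6.02, 6.35 and 6.72 on the knockout arrays and 5.88, 5.65 and 5.93 on the wild-type arrays, highest on knockout replicate 3. Of 14 lymphocyte markers 1 rose, the B cell receptor chain Cd79b (0.69 ± 0.17). An immunoglobulin kappa probe set (Igkj1), which may detect several kappa transcripts, read 6.10, 6.75 and 9.03 against 3.97, 4.12 and 3.85 and rose by 3.31 ± 0.77 (limma, adjusted p = 0.0178). The B cell chemokine Cxcl13 read 3.91, 6.87 and 7.44 against 3.32, 3.38 and 3.06 and rose by 2.82 ± 0.50. Igkj1 was highest on replicate 3 and Cxcl13 was high on replicates 2 and 3, and neither was called with replicate 1 alone (adjusted p = 0.543 and 0.584). The wild-type levels of both lay below 4, so the rises are lower bounds. Whether cell makeup differed on replicates 2 and 3, and played a part in these results, was not tested.

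Genes of the integrated stress response formed another group of rises. Of 29 measured members 12 rose and none fell (limma), with a median difference of 0.89. The groups did not overlap for 15 of the 29, against 19.3% of all genes. Median deviations were 0.54, 0.91 and 1.37 on knockout replicates 1, 2 and 3, so replicate 1, the highest for the interferon-gamma list, was the lowest here. With replicate 1 alone 9 members were called higher, at a median of 0.54. The fit of the 6 heart arrays alone called 5 members. Whether cell makeup differed on replicates 2 and 3, and contributed to their higher values, was not tested.

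Genes of amino acid synthesis were prominent among them. Asparagine synthetase (Asns) read 7.46, 7.97 and 8.72 on the knockout arrays and 3.54, 4.34 and 3.68 on the wild-type arrays. It rose by 4.19 ± 0.45 (limma, adjusted p = 1.31e-06), a lower bound, and by 3.60 with replicate 1 alone (adjusted p = 0.00329). It was the largest rise among the 372 called genes. Phgdh, the entry enzyme of serine synthesis, read 6.61, 6.69 and 7.46 against 4.17, 4.34 and 4.12 and rose by 2.71 ± 0.30. Psat1, the next enzyme of that pathway, read 3.81, 4.53 and 6.65 against 3.83, 3.61 and 3.59 and was not called (1.32 ± 0.38, adjusted p = 0.0678). Psat1 was high on replicate 3 and at the wild-type level on replicate 1. Aldh18a1, of proline synthesis, rose by 1.17 ± 0.15. Aldh1l2, a mitochondrial enzyme of one-carbon metabolism, read 6.63, 7.12 and 7.82 against 5.18, 4.47 and 3.11 and rose by 2.93 ± 0.31. Other mitochondrial one-carbon genes were not called, with Shmt2 at 0.44 ± 0.21 and Mthfd1l at 0.01 ± 0.18.

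Some transport and regulatory genes of the response also rose. The 2 chains of the large neutral amino acid exchanger, Slc7a5 and Slc3a2, rose by 2.32 ± 0.27 and 1.09 ± 0.14. The cystine carrier Slc7a11 stayed near the floor of the arrays (0.16 ± 0.16). Atf5, a transcription factor linked to mitochondrial stress, read 8.89, 9.02 and 9.82 against 6.53, 6.69 and 7.19 and rose by 2.44 ± 0.20 (limma, adjusted p = 1.95e-08), the smallest adjusted p of the list. Atf4 rose by 0.89 ± 0.15 and Ddit3, the factor CHOP, by 1.04 ± 0.26. ATF4 is also controlled at translation, which arrays do not measure. The ATF4 target pseudokinase Trib3 read 4.34, 5.12 and 6.56 against 2.94, 3.47 and 2.95 and rose by 2.22 ± 0.30. Nupr1, a stress-induced chromatin protein, rose by 2.43 ± 0.29. Chac1, which degrades glutathione, read 5.87, 6.48 and 7.35 against 4.70, 3.49 and 3.75 and rose by 2.58 ± 0.53. Replicate 3 was the highest array for all of these. Atf4, Chac1 and Ddit3 were not called with replicate 1 alone, at adjusted p = 0.23, 0.388 and 0.696. The hormone Fgf21 (1.01 ± 0.28), the phosphatase subunit Ppp1r15a (0.83 ± 0.23), Pck2 (1.05 ± 0.32) and Atf3 (0.88 ± 0.48) were not called.

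Promoters of Asns and Chac1, the called members with matches and the largest rises, are shown with TGATGNAA, the core of the element bound by ATF4 with C/EBP factors. The core was found in 3 of the 10 called members with a promoter (30%) and in 5 of 16 members not called (31.2%), against 3.91% of 27025 genes, so called and uncalled members had like shares. The windows are chr6:7693210-7693459 (minus strand) for Asns and chr2:119350992-119351241 (plus strand) for Chac1, from RefSeq on GRCm38.p6.
Asns: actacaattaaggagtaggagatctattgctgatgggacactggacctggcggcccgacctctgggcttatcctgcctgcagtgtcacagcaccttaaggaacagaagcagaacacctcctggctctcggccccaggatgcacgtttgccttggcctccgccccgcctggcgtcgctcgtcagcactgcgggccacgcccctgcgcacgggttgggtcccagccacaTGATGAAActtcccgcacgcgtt
Chac1: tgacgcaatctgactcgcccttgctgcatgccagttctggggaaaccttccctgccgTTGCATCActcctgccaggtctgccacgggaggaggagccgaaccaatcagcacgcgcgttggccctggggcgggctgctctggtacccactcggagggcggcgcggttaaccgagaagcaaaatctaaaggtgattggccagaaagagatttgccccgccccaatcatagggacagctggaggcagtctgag
Each holds 1 match, which begins 23 bases before the gene start in Asns and 193 bases before it in Chac1, where it lies on the other strand. Nupr1 was the third called member with a match.

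Transcripts for mitochondrial proteins gave no calls in the lists of this kind. None of 17 mitochondrial chaperones and proteases was called (limma; 1 higher and 1 lower at an unadjusted p below 0.05). The chaperonin Hspe1 read 9.83 ± 0.14 on knockout and 9.92 ± 0.13 on wild-type arrays (SD, n = 3), the chaperone Hspa9 10.56 ± 0.12 and 10.36 ± 0.06, and the protease Lonp1 differed by 0.31 ± 0.12 (adjusted p = 0.22). None of 73 mitochondrial ribosomal protein genes was called (limma), at a median of -0.11. At an unadjusted p below 0.05, 3 were higher and 10 lower, against 13.8% of all genes in either direction. The extremes of that list were Mrps6 at 0.56 ± 0.22 and Mrpl28 at -0.41 ± 0.12. No subunit of the respiratory complexes was called either, whether among 33 of complex I (median -0.18), 4 of complex II (-0.13), 8 of complex III (-0.16), 12 of complex IV (-0.09) or 15 of ATP synthase (-0.06). At an unadjusted p below 0.05, 8, 0, 3, 0 and 1 of them were lower and 1, of complex IV, was higher. The same 13.8% of all genes is the share to set beside these counts. All 33 complex I subunits had negative differences, from -0.32 to -0.02. The groups did not overlap for 22 of them, against 19.3% of all genes. With replicate 1 alone the complex I median was -0.07.

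Several of these medians lay slightly below that of all genes. Over the 5168 genes whose mean reached 6, the median change was itself -0.08. Factors of mitoribosome assembly and translation (0 of 22 called, median -0.22), mitochondrial DNA maintenance (0 of 16, -0.27), mitochondrial aminoacyl-tRNA synthetases (0 of 15, -0.24), fatty acid oxidation (0 of 18, -0.27) and the tricarboxylic acid cycle (0 of 15, -0.14) had medians in a like range. At an unadjusted p below 0.05, 7, 7, 4, 5 and 2 of them were lower and none was higher (limma; 13.8% of all genes in either direction). Gfm1, the elongation factor of mitochondrial translation, read 9.81 ± 0.15 against 10.11 ± 0.01 (SD, n = 3) and was not called (adjusted p = 0.137). Replicate 1 alone gave smaller medians for these 5 lists, from -0.18 to 0.01. Of 16 PPAR targets 1 fell, the peroxisomal enzyme Ehhadh (-0.92 ± 0.23), and of 18 antioxidant genes 1 rose, the glutathione synthesis subunit Gclm (0.97 ± 0.17).

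None of the 26 listed sarcomere and Z-disc genes was called (limma, none also at an unadjusted p below 0.05), among them Myl2 at 13.44 ± 0.03 on knockout and 13.47 ± 0.07 on wild-type arrays and Myh7 at 13.20 ± 0.06 and 13.26 ± 0.05 (SD, n = 3). The Myh7 probe set used may detect relatives, and another Myh7 probe set differed by -0.77 (limma, unadjusted p = 0.223). The Z-disc protein Myot, which is not in the sarcomere list, was called lower and is described under the other observations. Of 15 calcium handling genes 1 fell, junctophilin 2 (Jph2), which holds the T-tubule to the sarcoplasmic reticulum. Jph2 read 9.45, 8.97 and 8.83 against 9.61, 9.76 and 9.73 (-0.62 ± 0.15, adjusted p = 0.0227), and was closer to wild type on replicate 1. The calcium pump Atp2a2 and phospholamban (Pln) differed by 0.00 ± 0.29 and 0.01 ± 0.30. Of 13 cardiac stress genes 2 rose. Galectin 3 (Lgals3), a macrophage lectin, read 5.66, 9.15 and 8.75 against 5.54, 5.46 and 6.09, high on replicates 2 and 3 only, while the deubiquitinase Uchl1, also a neuronal gene, read 4.97, 4.85 and 5.56 against 4.01, 3.92 and 4.06 (1.13 ± 0.24). The peptide Nppb was not called (0.35 ± 0.32). Of 67 cytosolic ribosomal protein genes 1 rose (Rpl3, 0.67 ± 0.17) and 1 fell (Rpl3l), near the shares of all genes (1.11% and 1.07%). Their median difference was 0.15, with 62 positive and 5 negative. At an unadjusted p below 0.05, 11 were higher and 1 lower (limma), against 13.8% of all genes in either direction. The groups did not overlap for 28 of the 67, against 19.3% of all genes.

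Among called genes with a mean of at least 6 and no overlap of the groups, most of the 12 largest falls lay outside these lists. After Clpp came the chemokine Cxcl14, at 4.75, 4.35 and 4.003 against 6.19, 6.12 and 6.51 (-1.91 ± 0.32), and the oxygen-dependent prolyl hydroxylase Egln3, at 7.03, 6.61 and 5.72 against 7.76, 8.26 and 8.78 (-1.82 ± 0.31; limma, adjusted p = 0.000847 and 0.00111). Both had all knockout arrays below all wild-type arrays, with replicate 1 nearest to wild type. With replicate 1 alone Cxcl14 differed by -1.52 and Egln3 by -1.24. Scn4b, the beta subunit of cardiac sodium channels, read 5.82, 5.77 and 5.35 against 7.18, 7.96 and 6.80 and fell by 1.67 ± 0.24. Scn4b was also called with replicate 1 alone (-1.49, adjusted p = 0.0355). Rpl3l, the muscle form of a ribosomal protein, read 10.00, 8.78 and 8.58 against 10.57, 10.48 and 10.40 and fell by 1.36 ± 0.28, but by only 0.48 on replicate 1 (adjusted p = 0.787). Ky, a muscle protein needed for normal muscle growth, read 4.86, 4.74 and 5.002 against 6.10, 6.27 and 6.29 and fell by 1.35 ± 0.13 (adjusted p = 1.83e-07). Its fall was as large on replicate 1 (-1.36, adjusted p = 0.000166).

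The other large falls were the orphan receptor Gpr22 (-1.29 ± 0.21), found in heart and brain, Smco1 (-1.26 ± 0.20), Klra9 (-1.60 ± 0.27), a receptor of natural killer cells whose probe set may detect relatives, Igsf1 (-1.43 ± 0.33), the angiomotin gene Amot (-1.23 ± 0.28) and the exchange factor Rasgrf2 (-1.21 ± 0.27). With replicate 1 alone Gpr22 differed by -0.67, Smco1 by -0.55, Klra9 by -0.95 and Igsf1 by -0.81. Amot differed by -1.095 and Rasgrf2 by -1.22 on that array. Probe sets disagreed for some of these falls. Other probe sets of Igsf1, Ky and Rasgrf2 differed by -0.11 to 0.12. For Amot another probe set was 0.28 higher in knockout, so its direction depends on the probe set. Another Cxcl14 probe set differed by -0.86, less than the one used. Gpr22 and Egln3 each had another probe set that was also lower, with differences of -1.31 and -1.42.

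**Figure D4:**
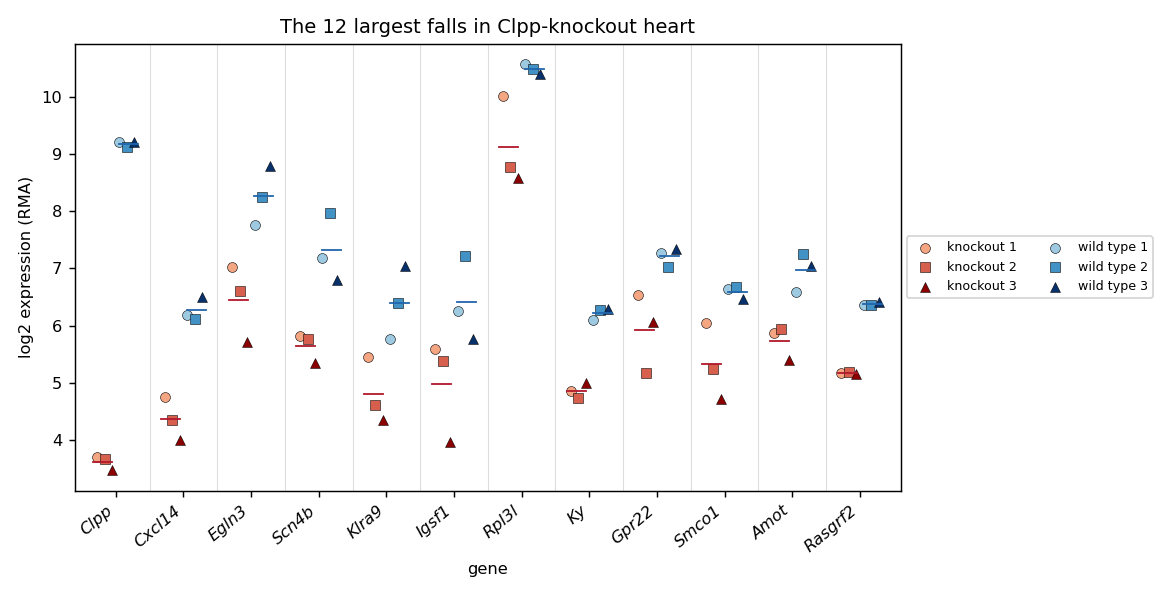
Log2 expression (RMA, vertical axis) of 12 genes (horizontal axis), the largest falls among called genes, clones left out, whose groups do not overlap and whose mean reaches 6 in either genotype, on each of the 6 heart arrays, with group means as short lines. All knockout arrays lie below all wild-type arrays for each gene. Knockout replicate 1 lies nearer to wild type than replicates 2 and 3 for Rpl3l, Gpr22, Smco1, Cxcl14, Egln3, Klra9 and Igsf1, among others.

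The knockout effect in heart was then set against that in skeletal muscle, liver and brain. For 135 of the 17097 genes (0.79%) the heart effect differed from the mean effect of these 3 tissues (limma; 68 higher, 0.398%, and 67 lower in heart, 0.392%), and for 146 (0.854%) from that of skeletal muscle. Within the other tissues 1.54% of genes were called in skeletal muscle (0.778% higher and 0.76% lower), 2.42% in liver (0.912% and 1.5%) and 0.415% in brain (0.234% and 0.181%). Of the 372 genes called in heart, 121 (32.5%) had such a difference from the 3 tissues, a share that their choice by the heart call favours. Genes called in the same direction in heart and another tissue numbered 26 with skeletal muscle (6.99% of the heart calls and 9.89% of the muscle calls), 33 with liver (8.87% and 7.99%) and 25 with brain (6.72% and 35.2%).

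Most stress response genes that rose in heart had smaller changes elsewhere. Over all 29 integrated stress response members, the heart effect was called greater than the mean of the other 3 tissues for 11 and smaller for none (limma). At an unadjusted p below 0.05, 16 were greater and 1 smaller. Of the 12 members called in heart, only Ddit3 had no called difference (0.92, adjusted p = 0.201). Choosing members by their call in heart favours such a difference. In skeletal muscle and brain none of the 29 members was called, and in liver 1 was higher (limma; 2 and 3 were higher at an unadjusted p below 0.05 in muscle and brain, and none lower). Their median differences were 0.04 in skeletal muscle, 0.08 in liver and 0.17 in brain. Asns changed by -0.31 ± 0.45 in skeletal muscle, -1.11 ± 0.45 in liver and 0.08 ± 0.45 in brain, and its heart effect was greater than their mean by 4.64 ± 0.52 (adjusted p = 1.17e-05). The wild-type level of Asns was 3.86 in heart, 3.86 in skeletal muscle, 4.56 in liver and 8.23 in brain, and the mean in knockout heart was 8.05. Atf5 changed by 0.39, 0.14 and 0.39 in the same tissues, with a difference of 2.141 ± 0.23 (adjusted p = 9.96e-06). In 5 of the 29 members a difference was called with replicate 1 alone as well, namely Atf5, Trib3, Asns, Phgdh and Aldh1l2.

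Interferon-stimulated genes rose in all 4 tissues, with 18 of 37 called in skeletal muscle, 16 in liver and 15 in brain (limma), against 20 in heart. For 9 members the heart effect was called greater and for none smaller (limma; 13 were higher and 2, Rsad2 and Trim30a, lower in heart at an unadjusted p below 0.05). Usp18 rose by 1.88 in skeletal muscle, 2.03 in liver and 2.20 in brain, and by 2.03 ± 0.22 more in heart (adjusted p = 9.96e-06). Ifi27 rose by 1.55 ± 0.12 in brain and differed by 0.36 ± 0.12 in skeletal muscle, and had the smallest p of all genes for a difference between heart and the 3 tissues (1.75 ± 0.14, adjusted p = 7.1e-08). No difference was called for Oas1g (0.20, adjusted p = 0.846) or Rtp4 (-0.20, adjusted p = 0.872). For 6 members a difference was also called with replicate 1 alone. Of the 17 interferon-gamma and GTPase genes none had a called difference between heart and the 3 tissues (limma; 6 higher and 0 lower in heart at an unadjusted p below 0.05), and 2, Igtp and Irgm1, had one with replicate 1 alone.

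**Figure D5:**
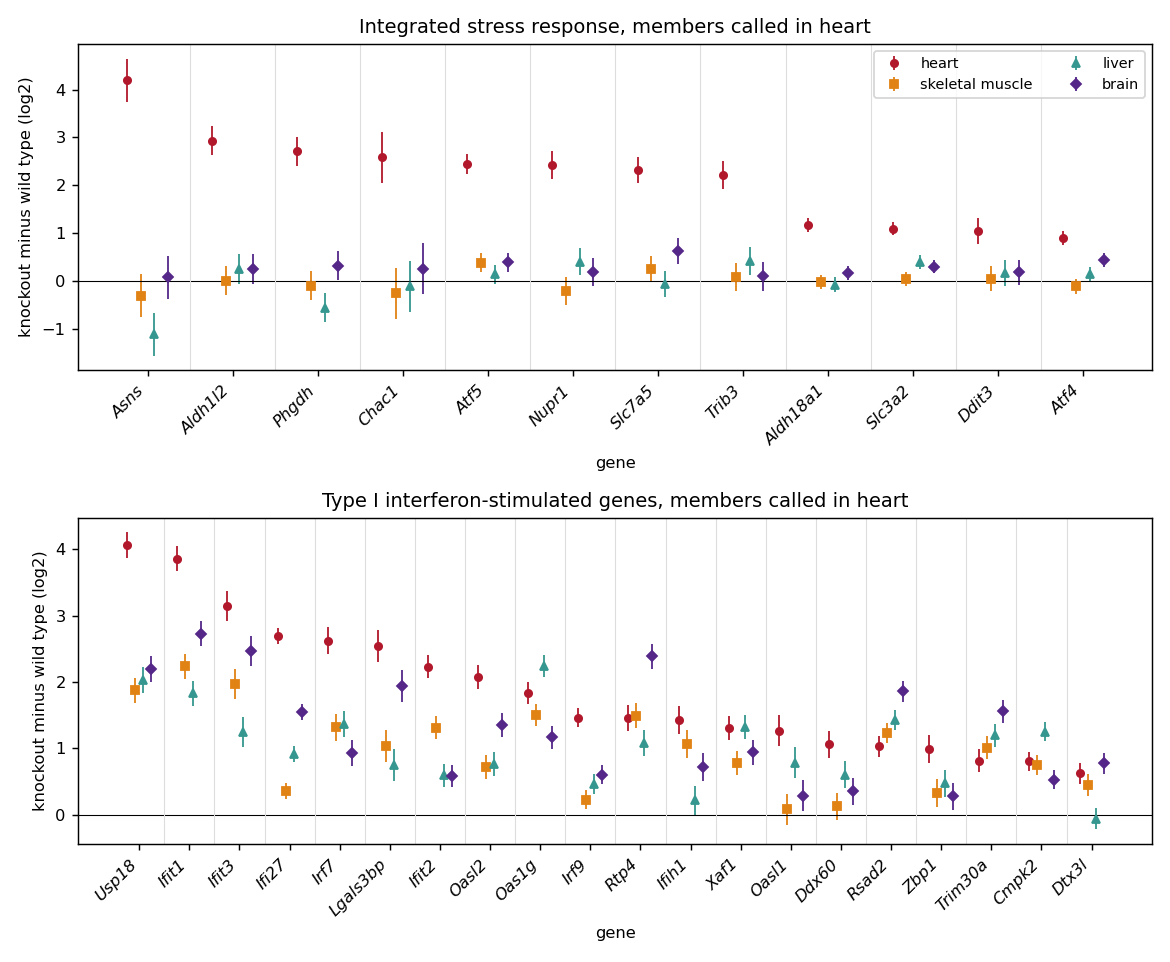
Log2 difference of knockout minus wild type (vertical axis) with its SE in heart, skeletal muscle, liver and brain, for the 12 integrated stress response members (top) and the 20 type I interferon-stimulated genes (bottom) called in heart. Most stress response genes lie closer to 0 outside heart than in it, but Asns (-1.11 ± 0.45) and Phgdh (-0.56 ± 0.30) were lower in liver. Most interferon genes are above 0 in all 4 tissues.

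Genes called in the same direction in all 4 tissues numbered 14. They were Clpp itself and 13 rises, namely Usp18, Ifit1, Ifit3, Irf7, Oasl2, Oas1g, Rtp4, Xaf1, Rsad2, Trim30a, Gbp3, Rnf213 and the predicted gene Gm9706. All but the last 2 and Clpp are members of the interferon lists. A further 321 genes were called in heart and in none of the other 3 tissues, which alone is no test of a difference. The smallest p values for the heart effect against the 3 tissues belonged to Ifi27, Usp18, Atf5, Asns and the clone 2210407C18Rik, which fell by 1.93 in heart and differed by 0.05 in skeletal muscle and -0.10 in liver. Against skeletal muscle alone they included the phospholipase Pla2g5, which fell by 1.18 in heart and rose by 1.34 in muscle. Of genes near Clpp on chromosome 17, 0 of 132 genes within 10 Mb were called (limma; 20, or 15.2%, had an unadjusted p below 0.05, against 13.8% of all genes).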

How the data were processed

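Total RNA (100 ng per array) was hybridised to Affymetrix mouse arrays. The deposited values are log2 expression per probe set, made by the authors with RMA in R 2.14.0, per the submitters' processing notes. Whether the 30 arrays were normalized together is not given in the sources used here. No further normalization was applied.

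Of 45141 probe sets, 28898 were assigned to 1 gene, 551 to several and 15692 to none. For each of 17097 genes the probe set of greatest mean level across the 30 arrays was kept, which was a choice among several for 7180. Names came from the platform annotation, and 16937 genes were found in a GRCm38.p6 table.

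A model of 10 group means was run in limma 3.58.1 under R 4.3.3 (20 residual degrees of freedom). Contrasts were knockout minus wild type in heart, and the heart effect minus the mean effect of liver, skeletal muscle and brain, or minus that of skeletal muscle. Tests were two-sided. A gene was called where p, adjusted over all genes by Benjamini-Hochberg, was under 0.05. Errors of differences are SE. The pooled spread gives too small an SE for genes whose knockout heart arrays vary more than other groups.

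The 52 gene lists (19 of cell types, 33 of pathways) and the members were chosen with earlier results of these data known, and lists were not tested. Named genes were, in each direction, 12 called genes of greatest change whose groups do not overlap and whose mean reached 6 in either genotype, without clone names (1 rise, 3 falls), up to 4 members of a list, called ones first, and the 5 genes with the smallest p per contrast between tissues. Further list members, and the limit of 4 for lower bounds, were chosen after the values were seen.

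The fit was tested on simulated data in which each gene had the same spread in every group. Of 50 genes changed by 1, 40 were called, and 6 of all 162 calls were false. The simulation does not cover genes whose knockout heart arrays vary more than other groups. Same-numbered knockout and wild-type arrays deviated with correlations of -0.01, 0.03 and 0.05. Low correlations cannot exclude pairing, and the main fit used none. Alternatives were a fit of heart alone, replicate and random blocks, other priors, array weights, scalings, filters, probe set rules, and arrays left out.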

Additional observations from a re-analysis of the deposited data

Results flagged for a closer look

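The knockout effect differed between heart and the mean of liver, skeletal muscle and brain for 35 genes named or listed here, by limma's test of that difference at an adjusted p under 0.05. Outliers were not tested in groups of 3. Values are the heart effect minus that mean, on the log2 scale.

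Genes of the integrated stress response made up 11 of them. The differences were 4.643 for Asns, 2.825 for Phgdh, 2.761 for Aldh1l2, 2.623 for Chac1, 2.297 for Nupr1, 2.141 for Atf5, 2.044 for Slc7a5, 2.028 for Trib3, 1.143 for Aldh18a1, 0.846 for Slc3a2 and 0.737 for Atf4. Type I interferon-stimulated genes made up 9, with 2.027 for Usp18, 1.750 for Ifi27, 1.595 for Ifit1, 1.422 for Irf7, 1.399 for Ifit2, 1.293 for Lgals3bp, 1.253 for Ifit3, 1.125 for Oasl2 and 1.033 for Irf9.

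Other genes with a greater rise in heart were Igkj1 (3.733), Cxcl13 (2.366), the growth regulator Myc (2.094), the lipid antigen presenter Cd1d1 (1.871), Uchl1 (1.181) and the mesothelial marker Lrrn4 (0.912). Myc read 3.94, 5.58 and 6.24 on knockout replicates 1, 2 and 3 against 3.53, 3.50 and 3.60 on the wild-type arrays, so it was high on the arrays that carry atrial and fat transcripts. None of these 6, with replicate 1 alone, had a called difference between tissues.

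Genes lower in heart relative to the other tissues were Egln3 (-2.134), 2210407C18Rik (-1.911), Scn4b (-1.884), Pla2g5 (-1.726), Klra9 (-1.684), Smco1 (-1.385), Rpl3l (-1.355), Gpr22 (-1.263) and Ky (-1.249). With replicate 1 alone the difference was called for 2210407C18Rik, Scn4b and Ky.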

How the results depend on the processing

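The count of 372 called genes changed with the arrays entered and with the fit. It ranged from 198 to 789 with 1 heart array left out (789 without knockout replicate 1, 198 without replicate 2, 206 without replicate 3, 246 and 224 without wild-type replicates 1 and 2). It was 145 with knockout replicate 1 alone, 131 when wild-type replicate 1 was also left out (added after the data were seen), 83 in the fit of heart alone and 1146 with array weights. A stricter threshold of 0.01 gave 174 and a change of at least 1 gave 148. Genes whose heart effect differed from the 3 tissues (135) numbered 539 with array weights, 55 with replicate 1 alone and 68 to 498 with 1 heart array left out. Those that differed from skeletal muscle (146) numbered 482, 69 and 88 to 502. Without knockout replicate 1 these 2 counts were 498 and 502. Without replicate 2 the count against the 3 tissues was 80, and without replicate 3 the counts were 68 and 88. The cause of these changes was not tested.

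Called members of the type I interferon list numbered 15 to 27 over all alternatives. The fit of heart alone called 3 interferon-gamma and 5 stress response members. With replicate 1 alone Dkk3 (-0.172), Bmp10 (-0.167), Ucp1 (-0.064) and Lgals3 (-0.040) reversed. Of 52 named genes called in heart, 20 were called with replicate 1 alone and 19 in the fit of heart alone. With the replicate number as a block 365 genes were called, 294 of them among the 372, and 48 of the 52. Other priors, scalings, filters and probe set rules gave 284 to 399 genes. Signal near background limits genes with a mean under 4 to lower bounds.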

Other observations

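Some called genes outside the lists, picked after their values were seen, also changed in knockout heart. The glutamine transporter Slc38a1 read 5.35, 6.87 and 7.04 on the knockout arrays and 4.11, 4.02 and 4.33 on the wild-type arrays and rose by 2.27 ± 0.28 (limma, adjusted p = 1.67e-05). It was also called with replicate 1 alone (1.20, adjusted p = 0.0257). The Z-disc protein Myot read 8.08, 8.71 and 7.87 against 8.83, 9.56 and 9.43 and fell by 1.05 ± 0.16. The muscle kinase gene Mylk4 fell by 0.81 ± 0.11. Fah, the last enzyme of tyrosine breakdown, fell by 1.13 ± 0.14, and Dbt, a subunit of the branched-chain keto acid dehydrogenase, by 0.79 ± 0.15. Myot, Mylk4 and Fah were also called with replicate 1 alone, and Dbt was not (adjusted p = 0.233).

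The melanocyte gene Mlana read 2.56, 8.47 and 7.98 against 2.56, 2.52 and 2.83, high on knockout replicates 2 and 3 only. BC023105 showed the opposite, at 7.55, 3.81 and 4.39 against 3.05, 2.67 and 2.77, high on replicate 1.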
